A study of Mus musculus with 10 samples.

Results

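Activins are dimers of inhibin beta subunits and belong to the TGF-beta family of secreted signals. The genes described here are the 4 subunit genes Inhba, Inhbb, Inhbc and Inhbe, the activin-binding inhibitor follistatin (Fst), the type I receptor Acvr1 and the type II receptors Acvr2a and Acvr2b. They were found by symbol, and all 8 are among the 24972 genes of the deposited table. They were chosen from results of the same contrast that is described below, so their differences between the groups are a description and carry no test.

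The libraries were made from whole liver of mice of WT genotype that carried a pancreatic tumour. The 4 Tcell low libraries came from mice with a tumour of line 6419c1, and the 6 Tcell high libraries came from mice with a tumour of line 6555c3. Both lines are pancreatic ductal adenocarcinoma (PDAC) lines derived from KPC, a genetically engineered mouse model of pancreatic cancer. Each class of tumour is represented by 1 line, so the T-cell class of a tumour and its cell line cannot be told apart, and no liver without a tumour was analysed here. The labels do not say that each library is a separate mouse, so the spread within a group may be partly technical. The kit counts 3′ ends of transcripts (QuantSeq FWD), so a gene's count does not scale with its length, and the values are scaled counts, the authors' counts brought to a common depth.

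An activin dimer binds a type II receptor, ACVR2A or ACVR2B, which then activates a type I receptor and, through it, SMAD proteins that enter the nucleus. Follistatin holds activins A and B, the dimers of the Inhba and Inhbb products, away from their receptors. In the mouse, Inhbc and Inhbe are expressed mainly in hepatocytes, and activin B from Inhbb is known as an inflammatory signal that raises hepcidin, the liver hormone of iron balance.

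The promoters of 3 subunit genes are shown because Inhbb and Inhbe differed in opposite directions between the groups and Inhbc is the neighbour of Inhbe. Each run is from RefSeq (GRCm38.p6), 5′ to 3′ on the strand of its gene, with 250 bases before the start that RefSeq gives and 50 after it. For Inhbe that start lies inside the gene as GENCODE gives it (positions below), which begins further upstream, so the run shown is not the region before the GENCODE start. For Inhbc the RefSeq start lies upstream of the GENCODE gene, and the whole run lies outside that gene and does not span its start. Capitals mark matches to the motifs named afterwards.
Inhbb, chr1:119422199-119422498, minus strand: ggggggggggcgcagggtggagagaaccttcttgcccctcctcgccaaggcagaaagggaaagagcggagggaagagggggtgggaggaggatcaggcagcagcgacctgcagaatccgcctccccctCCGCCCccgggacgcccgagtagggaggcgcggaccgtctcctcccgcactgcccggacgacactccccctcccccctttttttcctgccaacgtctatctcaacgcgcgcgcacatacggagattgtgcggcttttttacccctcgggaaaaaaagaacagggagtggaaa
Inhbe, chr10:127351799-127352098, minus strand: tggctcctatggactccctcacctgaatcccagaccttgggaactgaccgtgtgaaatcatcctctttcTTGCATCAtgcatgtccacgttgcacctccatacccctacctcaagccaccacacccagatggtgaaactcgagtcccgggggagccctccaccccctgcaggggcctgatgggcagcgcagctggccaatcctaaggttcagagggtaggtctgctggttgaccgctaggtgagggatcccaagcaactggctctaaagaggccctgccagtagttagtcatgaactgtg
Inhbc, chr10:127370499-127370798, minus strand: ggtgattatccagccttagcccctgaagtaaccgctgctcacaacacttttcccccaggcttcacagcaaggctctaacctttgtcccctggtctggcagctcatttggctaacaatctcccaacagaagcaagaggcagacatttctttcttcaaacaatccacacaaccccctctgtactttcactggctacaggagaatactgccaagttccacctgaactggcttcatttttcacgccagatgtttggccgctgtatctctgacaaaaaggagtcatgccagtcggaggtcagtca

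The 3 promoters differed in base composition. GC content was 64.3% with 23 CpG pairs for Inhbb, 57.3% with 6 for Inhbe and 49.7% with 4 for Inhbc, against medians of 52.7% and 7 over all 32851 promoters of the table. The capitals in Inhbe are TTGCATCA, a composite element of C/EBP and ATF factors known from amino acid and stress response genes. It begins 181 bases before the RefSeq start, no other member's promoter held it on either strand, and 0.895% of all promoters did. The capitals in Inhbb are a GC box, GGGCGG read on the other strand, which Acvr1, Acvr2a and Acvr2b also held and which 35.7% of all promoters held. The TATA box letters TATAAA were found in the Inhba promoter, 91 bases before its start, and in 13.6% of all promoters. Searches on both strands for TGACGTCA (1.79% of all promoters), its shorter form TGACG (20.8%), GTAAACA (3.65%), TTCNNNGAA (8.3%) and GTCTAGAC (0.213%) matched no promoter of the 7 members that have an entry. TGACG lies within TGACGTCA, so those 2 searches overlap. A match is a description of letters and not of a bound site.

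In the mm10 build (GENCODE vM21) Inhbb lies on chromosome 1 (119415465 to 119422248, minus strand). Inhbe (127348857 to 127354411) and Inhbc (127356322 to 127370431) lie beside each other on the minus strand of chromosome 10 with 1910 bases between them. Inhba (16011851 to 16031621, plus strand) and Fst (114452290 to 114458951, minus strand) lie on chromosome 13. Acvr1 (58388644 to 58567157, minus strand) and Acvr2a (48814109 to 48903269, plus strand) lie on chromosome 2, and Acvr2b (119402118 to 119434995, plus strand) lies on chromosome 9. Genes on the opposite strand lie near the 3′ ends of Inhba (Gm48444), of Inhbc and Inhbe (Gm47200) and of Acvr2a (Orc4). Whether the authors counted by strand is not given in the sources used here, so reads of those pairs may not be told apart.

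The libraries held 7000659 to 8257373 scaled counts each, with 13370 to 14300 genes above 0. Hepatocyte markers summed to 369105 to 534086 scaled counts in Tcell low livers and 239321 to 505084 in Tcell high livers, which fits the labelled tissue. The library labelled Tcell low 1 stood apart from its group. Across the 11110 tested genes, its log2 values had a mean correlation of 0.861 with the other Tcell low libraries and of 0.936 with the Tcell high libraries. In every other library the mean correlation was higher with its own group. Within Tcell high, replicates 1, 3, 5 and 6 stood at least 1 log2 unit away from all other libraries in 98 genes, of which 93 were higher in them, and 0 of the 98 are members. No other set of libraries was counted in this way, so the 98 genes have nothing to be compared with. Values with and without Tcell low 1, and against each set of Tcell high libraries, are given below for the members. Those without Tcell low 1 are also given for the named related genes that passed.

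**Figure D1:**
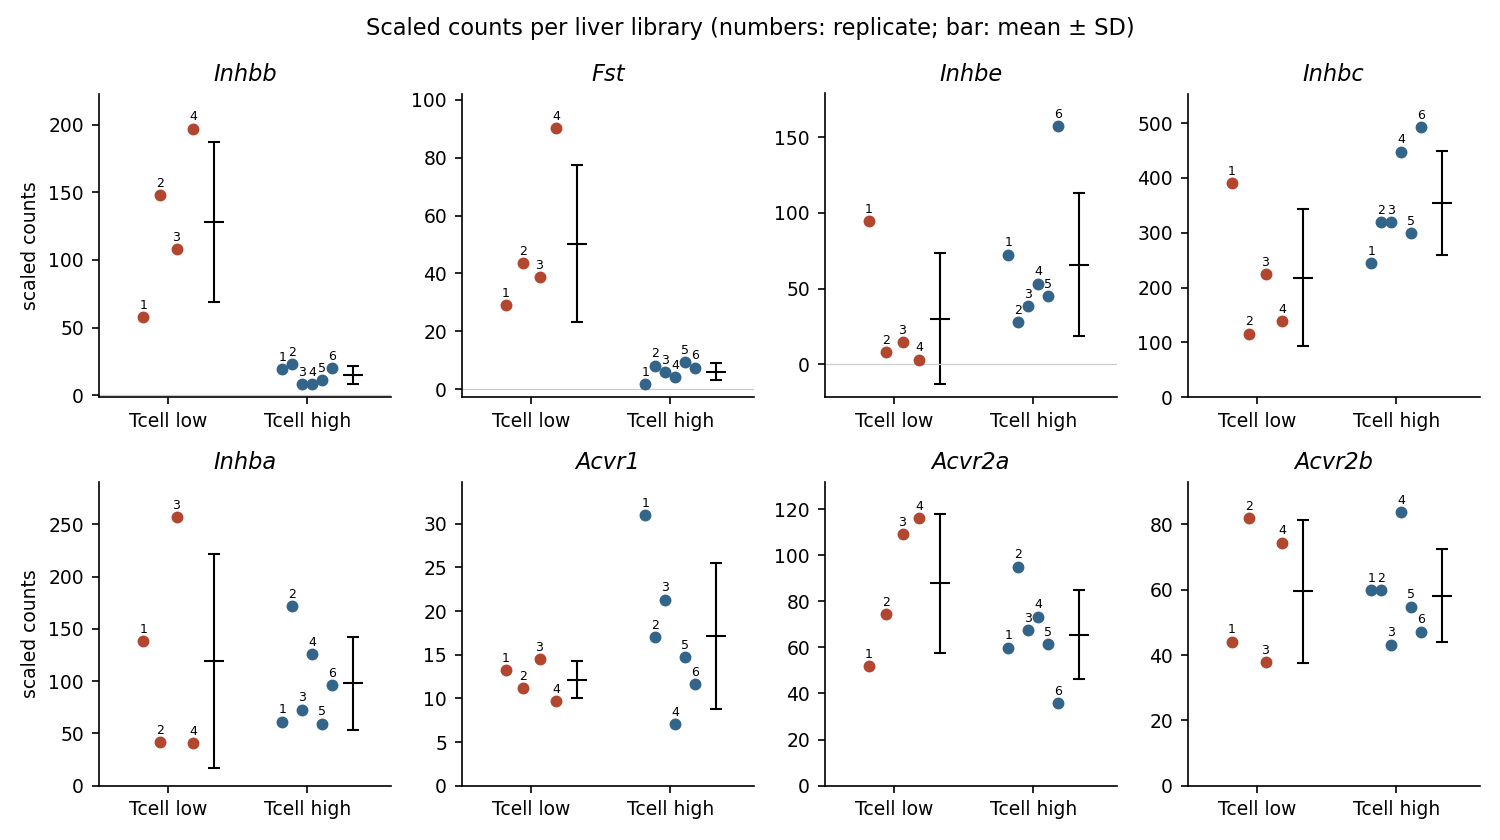
Scaled counts (y axis, from 0 up to the highest value of each gene) of the 8 genes in each of the 4 Tcell low and 6 Tcell high liver libraries; numbers are replicates, and bars are the mean with SD. Inhbb and Fst stand higher in all 4 Tcell low libraries than in any Tcell high library, while the groups of the other 6 genes overlap; a lower bar end under 0, as for Inhbe, comes from the SD and not from a measured value.

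Among the ligand subunits, Inhbb was the gene with the highest values in Tcell low livers relative to Tcell high livers. It encodes the beta B subunit, the building block of activin B. Tcell low replicates 1 to 4 held 57.9, 148, 108 and 197 scaled counts of Inhbb. Tcell high libraries held a lowest value of 8.06, a median of 15.1 and a highest value of 22.8. The groups did not overlap, and the lowest Tcell low library stood 2.54 times above the highest Tcell high library. The means were 128 ± 59.1 in Tcell low (SD, n = 4) and 14.9 ± 6.53 in Tcell high (SD, n = 6), a ratio of 8.59. On the scale of log2(scaled count + 1), the difference was 3.00 (SE 0.41).

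Fst, which encodes the inhibitor of activins A and B, was higher beside its ligand gene. Tcell low replicates 1 to 4 held 29.0, 43.5, 38.7 and 90.1 scaled counts of Fst, against a lowest value of 1.76, a median of 6.70 and a highest value of 9.39 in Tcell high. Here too all Tcell low libraries stood above all Tcell high libraries. The means were 50.3 ± 27.2 in Tcell low (SD, n = 4) and 6.16 ± 2.80 in Tcell high (SD, n = 6), a ratio of 8.17 and a log2 difference of 2.83 (SE 0.48). The Tcell high mean is below the 10 scaled counts that a gene needed on average over all libraries to be tested, so Fst was tested only because of its level in Tcell low. Inhbb and Fst had the same order within Tcell low, with replicate 4 highest, then 2, then 3, then 1, while their orders within Tcell high differed. That Tcell low order is not particular to the pair. Of the related genes described below, Bmp4 and Bmpr2 also had it and Tgfbr2 did not. Its share over all tested genes was not counted. There were 0.295 to 0.502 scaled counts of Fst per scaled count of Inhbb in Tcell low and 0.0918 to 0.854 in Tcell high, so the ratio of inhibitor to ligand transcript lay within the wide Tcell high range.

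Inhbe, which encodes the hepatocyte subunit beta E, was lower in most Tcell low livers. Tcell low replicates 1 to 4 held 94.4, 7.99, 14.7 and 3.21 scaled counts, against a lowest value of 27.7, a median of 49.2 and a highest value of 157 in Tcell high. Thus 3 of the 4 Tcell low libraries lay below every Tcell high library, and replicate 1 lay inside the Tcell high range. The means were 30.1 ± 43.1 in Tcell low (SD, n = 4) and 65.7 ± 47.1 in Tcell high (SD, n = 6), and the log2 difference was -1.88 (SE 0.72). Without Tcell low 1 the log2 difference was -2.75. The Tcell low libraries spread over a range of 29.4 times, the widest of the 8 genes in either group.

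Inhbc, the neighbouring gene for the beta C subunit, had the same kind of distribution with a smaller difference. Tcell low replicates 1 to 4 held 391, 116, 225 and 139 scaled counts, against a lowest value of 245, a median of 319 and a highest value of 493 in Tcell high. Again 3 of the 4 Tcell low libraries lay below every Tcell high library and replicate 1 did not. The means were 218 ± 125 in Tcell low (SD, n = 4) and 354 ± 95.3 in Tcell high (SD, n = 6), with a log2 difference of -0.82 (SE 0.32), or -1.16 without Tcell low 1. Replicate 1 was the highest and replicate 3 the next of the Tcell low libraries for both Inhbe and Inhbc.

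Inhba, which encodes the beta A subunit of activin A, did not follow Inhbb. Tcell low replicates 1 to 4 held 138, 41.9, 257 and 40.8 scaled counts, against a lowest value of 59.3, a median of 84.3 and a highest value of 172 in Tcell high. The Tcell low libraries lay on both sides of the Tcell high range, with replicate 3 above it and replicates 2 and 4 below it. The log2 difference was -0.03 (SE 0.50), and it ranged from -0.54 to 0.33 when single libraries were left out, so no direction is given. The highest Tcell low value was 6.29 times the lowest, and in Tcell high this ratio was 2.91.

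The receptor genes differed by less than the spread between libraries. Acvr1 encodes ALK2, a type I receptor mainly of bone morphogenetic proteins (BMPs). It had 13.2, 11.2, 14.5 and 9.64 scaled counts in Tcell low replicates 1 to 4, against a lowest value of 7.05, a median of 15.8 and a highest value of 31.0 in Tcell high. All Tcell low values lay within the Tcell high range, and the log2 difference was -0.35 (SE 0.43). Acvr2a had 51.8, 74.4, 109 and 116 scaled counts in Tcell low replicates 1 to 4, against a lowest value of 35.8, a median of 64.5 and a highest value of 95.1 in Tcell high. Replicates 3 and 4 lay above the Tcell high range, and the log2 difference was 0.40 (SE 0.31). Acvr2b had 44.1, 82.0, 37.8 and 74.4 scaled counts in Tcell low replicates 1 to 4, against a lowest value of 43.2, a median of 57.3 and a highest value of 83.8 in Tcell high. Its groups overlapped almost fully, and the log2 difference was -0.01 (SE 0.29).

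Of the 8 genes, 2 (Inhbb and Fst) passed an adjusted p of 0.05 in the fit over all 11110 tested genes, both higher in Tcell low. Of all tested genes 12.8% passed, with 5.39% higher in Tcell low and 7.39% lower. This balance depends on the scaling: 599 genes were higher and 821 lower as reported, 421 and 1068 with equal totals, and 717 and 665 with upper quartile scaling. The same 2 genes were those whose groups did not overlap. Over all tested genes, 3.37% lay wholly higher in Tcell low and 4.02% wholly lower. Nothing is read from the members' counts, since the genes were chosen with this contrast known. Both genes passed with each single library left out, but these fits use the libraries the genes were chosen from and are not separate support. Without Tcell low 1, Inhbc and Inhbe also passed, so that 4 genes did. In that fit 3633 of 11100 tested genes passed, against 1420 of 11110 with all libraries. The log2 differences without Tcell low 1 were 3.33 for Inhbb, 3.05 for Fst, -0.24 for Inhba, -0.39 for Acvr1, 0.63 for Acvr2a and 0.11 for Acvr2b.

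**Figure D2:**
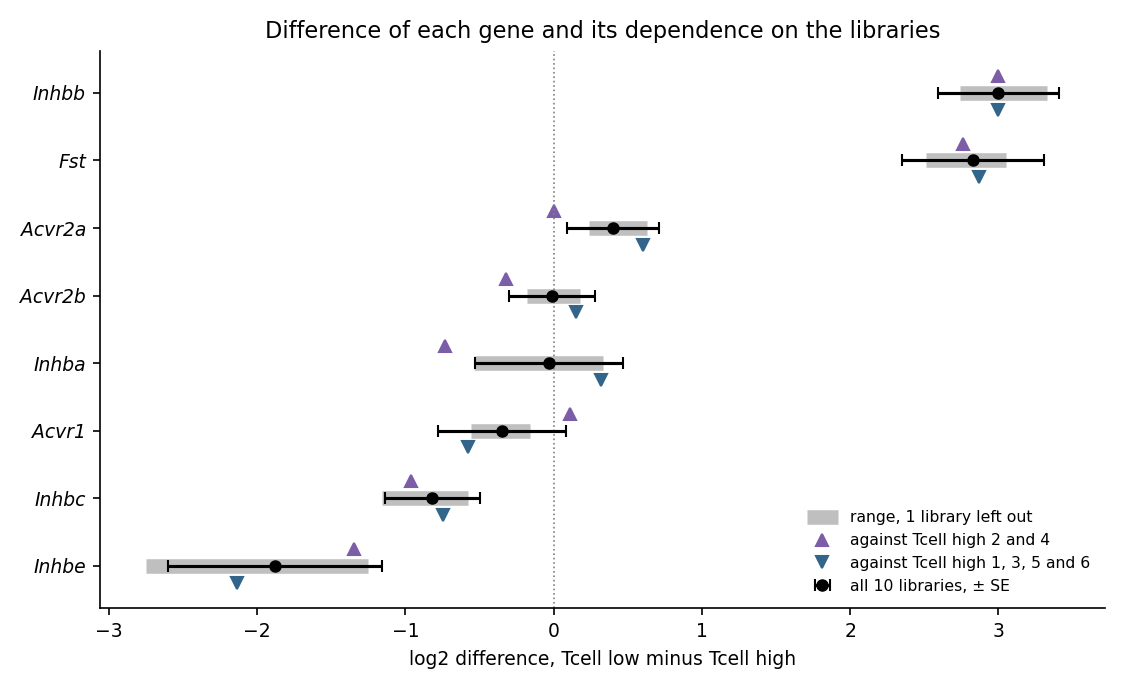
Log2 difference (x axis, Tcell low minus Tcell high, of scaled count + 1) of the 8 genes; black points with bars are the value over all 10 libraries with its SE, grey bands are the range with 1 library left out, and triangles are the values against Tcell high 2 and 4 (pointing up) or 1, 3, 5 and 6 (pointing down). Inhbb (left-out range 2.74 to 3.33) and Fst (2.51 to 3.05) stay right of 0 and Inhbc (-1.16 to -0.58) and Inhbe (-2.75 to -1.25) stay left of it, while the triangles of Inhba, Acvr1 and Acvr2b fall on both sides.

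Against Tcell high 2 and 4 alone, the log2 difference of Inhbb was 3.00, and against Tcell high 1, 3, 5 and 6 it was also 3.00. For Fst these values were 2.76 and 2.87, for Inhbe -1.35 and -2.14, and for Inhbc -0.96 and -0.75. These 4 genes kept their direction against both sets of Tcell high libraries. The differences changed sign for Inhba (-0.73 and 0.32), Acvr1 (0.11 and -0.58) and Acvr2b (-0.32 and 0.15), and for Acvr2a they were 0.00 and 0.60.

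The ranking of the genes by level differed between the groups. By median scaled count, Tcell low had Inhbc (182), Inhbb (128), Acvr2a (91.6), Inhba (89.9), Acvr2b (59.2), Fst (41.1), Acvr1 (12.2) and Inhbe (11.3), from high to low. Tcell high had Inhbc (319), Inhba (84.3), Acvr2a (64.5), Acvr2b (57.3), Inhbe (49.2), Acvr1 (15.8), Inhbb (15.1) and Fst (6.70). The libraries of neighbours in this ranking overlapped, except for Fst and Acvr1 in Tcell low and for Inhbc and Inhba in Tcell high. By median, Inhbc ranked highest in both groups, and Inhbb stood next to it in Tcell low while it was among the lowest in Tcell high. In single libraries, Inhbc was the highest of the subunit genes in all 6 Tcell high libraries but in only 1 of the 4 Tcell low libraries, since Inhbb stood above it in replicates 2 and 4 and Inhba in replicate 3.

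**Figure D3:**
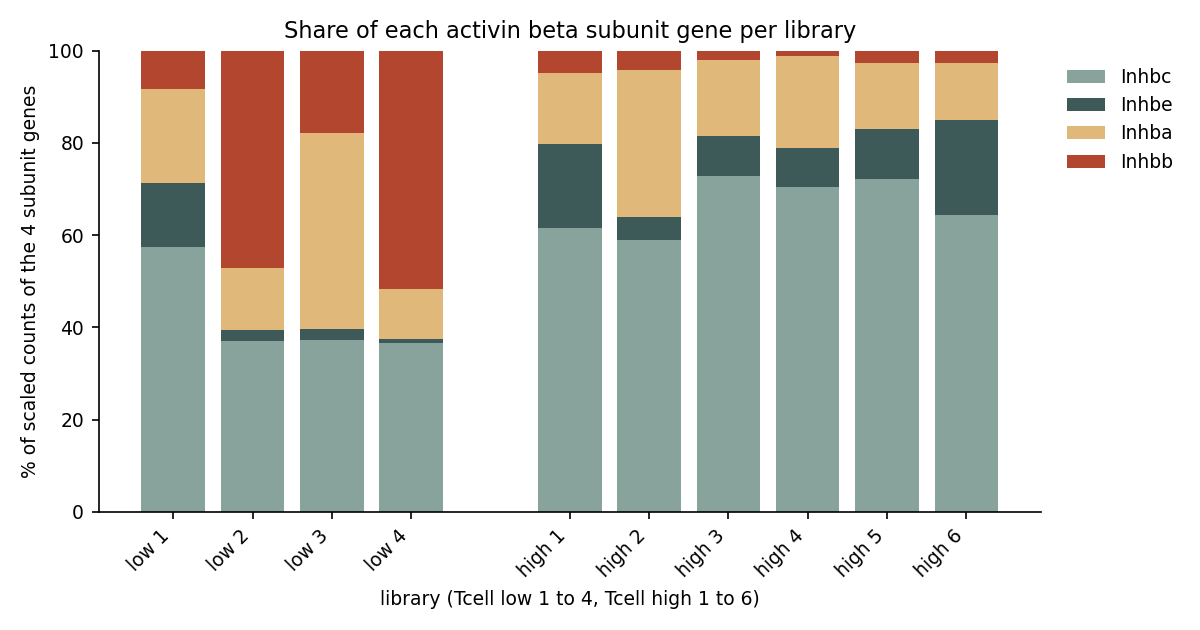
Share of each subunit gene in the summed scaled counts of Inhba, Inhbb, Inhbc and Inhbe, in percent, for each Tcell low library and then each Tcell high library. Inhbb makes up 8.50% to 51.8% of the sum in Tcell low and 1.27% to 4.83% in Tcell high.

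The make-up of the subunit transcripts differed between the groups, while their sum did not separate the groups. The 4 subunit genes together had 681, 313, 605 and 379.9 scaled counts in Tcell low replicates 1 to 4 and 398 to 765 in Tcell high. Inhbb made up 8.50%, 47.1%, 17.9% and 51.8% of that sum in Tcell low replicates 1 to 4 and 1.27% to 4.83% in Tcell high. The hepatocyte pair Inhbc and Inhbe made up 71.2%, 39.5%, 39.6% and 37.4% in Tcell low and 64.0% to 84.9% in Tcell high. Replicate 1 therefore had a Tcell high share of the hepatocyte pair together with an Inhbb share above all Tcell high libraries. Inhbb exceeded Inhbe 18.5, 7.35 and 61.3 times in Tcell low replicates 2, 3 and 4, while the ratio was 0.613 in replicate 1 and 0.127 to 0.824 in Tcell high. Within the pair, Inhbc exceeded Inhbe 4.14 times in Tcell low 1 and 14.5 to 43.2 times in the other 3 Tcell low libraries, against 3.14 to 11.5 times in Tcell high.

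Genes with the most similar profiles were sought over all tested genes, by the root mean square (RMS) difference of centred log2 values over the 10 libraries. Such genes were chosen for their likeness to a member, so their group differences repeat that member's and are not separate evidence. For Inhbb these were Cadm4 (RMS 0.56), Sdsl (0.57) and Dpep1 (0.60), while Inhbb itself varied with an RMS of 1.59 around its mean. Cadm4 averaged 31.4 ± 14.1 scaled counts in Tcell low (SD, n = 4) and 3.35 ± 1.17 in Tcell high (SD, n = 6). Sdsl averaged 424 ± 253 in Tcell low and 66.3 ± 12.6 in Tcell high. For Fst they were B930025P03Rik (0.52), Cdh4 (0.57) and Bcl2l11 (0.64), the last a promoter of apoptosis. Bcl2l11 averaged 472 ± 310.0 scaled counts in Tcell low and 51.0 ± 12.3 in Tcell high. The Tcell high means of Cadm4 (3.35), Dpep1 (3.88) and B930025P03Rik (6.04) are below the filter of 10. These genes were therefore searched only because of their level in Tcell low. Inhbb and Fst differed from each other by an RMS of 0.71, against 1.89 between Inhbb and Inhba and 1.81 between Fst and Inhba. These distances include the difference between the groups, which Inhbb and Fst share and Inhba lacks. They therefore do not show whether the genes vary together within a group.

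For Inhbe the most similar profiles were those of Rad51b (0.58), a DNA repair gene, Igtp (0.58), an interferon-induced GTPase gene, and Tlr12 (0.59), which encodes a Toll-like receptor. Igtp averaged 138 ± 152 scaled counts in Tcell low (SD, n = 4) and 418 ± 109 in Tcell high (SD, n = 6). For Inhbc they were Parp11 (0.18), Mndal (0.23) and Mbl1 (0.23), a mannose-binding lectin gene that averaged 958 ± 616 in Tcell low and 1715 ± 281 in Tcell high. Inhba was nearest to Parp9 (0.36), Acsl3 (0.37) and Vaultrc5 (0.38). The receptor genes were nearest to Coq3, Hnrnpf and Atg3 for Acvr1 (0.30 to 0.31), to Jcad, Cpsf6 and Usp6nl for Acvr2a (0.16 to 0.18), and to Mettl14, Fbxw5 and Smc4 for Acvr2b (0.18 to 0.20). Genes that vary little have small RMS values by construction, and Acvr2a and Acvr2b themselves varied by only 0.48 and 0.38.

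The rest of the pathway was described with lists of related genes. Of 108 related genes, 106 were in the table and 76 were tested. In the tested set 7 genes rose, 3 fell and the other 66 missed the threshold (limma, Benjamini-Hochberg adjusted over all tested genes). The share that passed, 13.2%, is close to the 12.8% of all tested genes. The median log2 difference of the 76 genes was 0.34, against 0.003 over all tested genes. The usual activin type I receptor genes Acvr1b and Acvr1c, the inhibin alpha gene Inha and the follistatin-like inhibitor gene Fstl3 were below the level needed for a test. So was Bambi, from the list of receptor genes, with 0 to 1.65 scaled counts in Tcell low and 2.03 to 15.2 in Tcell high. Bambi is named here after its values were seen.

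**Figure D4:**
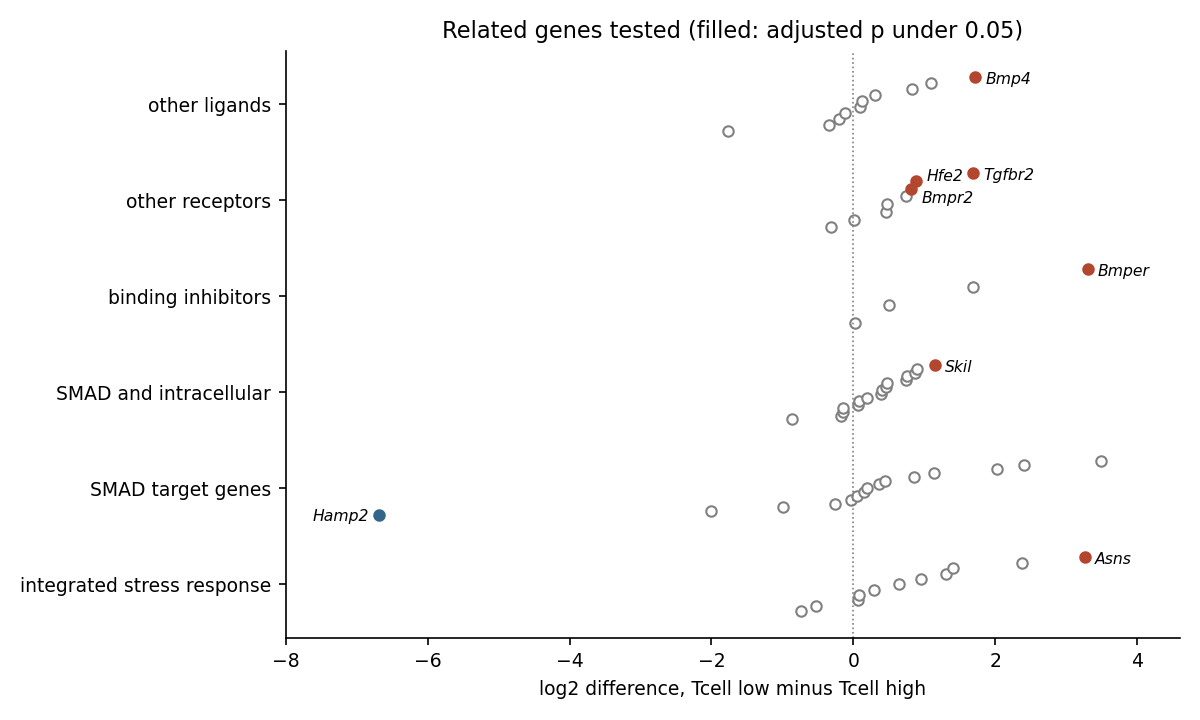
Log2 difference (Tcell low minus Tcell high) of the tested related genes in 6 lists; filled points passed an adjusted p of 0.05 over all tested genes. Among the genes shown, 7 rose (Bmp4, Tgfbr2, Bmpr2, Hfe2, Bmper, Skil, Asns) and 1 fell (Hamp2).

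Among 10 tested ligand genes outside the activin subunits, 1 rose and 9 did not pass. The one that rose was Bmp4, which encodes a BMP ligand. Tcell low replicates 1 to 4 held 87.9, 245, 237 and 361 scaled counts of Bmp4, and Tcell high libraries held 35.3 to 100.3. Only replicate 1 lay within the Tcell high range, and the log2 difference was 1.72 (SE 0.38, limma adjusted p = 0.0197). Of 8 tested receptor genes, 3 rose and 5 did not pass. Tgfbr2, the type II receptor for TGF-beta, averaged 126 ± 58.3 in Tcell low (SD, n = 4) and 34.2 ± 8.45 in Tcell high (SD, n = 6), a log2 difference of 1.69 (SE 0.39, limma adjusted p = 0.0219). Bmpr2, a type II BMP receptor that can also bind activins, averaged 389 ± 101 in Tcell low and 218 ± 39.1 in Tcell high (log2 0.81, SE 0.22, limma adjusted p = 0.0367). Hfe2, which encodes the BMP co-receptor hemojuvelin, averaged 1325 ± 561 in Tcell low and 667 ± 79.3 in Tcell high (log2 0.88, SE 0.27, limma adjusted p = 0.0489). For these 3 receptor genes, too, replicate 1 lay within the Tcell high range and the other 3 Tcell low libraries lay above it.

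Of 4 tested binding inhibitors besides Fst, 1 rose and 3 did not pass. Bmper, a secreted BMP-binding protein, had 30.5, 368, 61.7 and 365 scaled counts in Tcell low replicates 1 to 4 and 3.14 to 26.2 in Tcell high. The groups did not overlap, and the log2 difference was 3.30 (SE 0.73, limma adjusted p = 0.0197). Among 16 tested SMAD and other intracellular genes, 1 rose and 15 did not pass. Skil, which encodes the SMAD co-repressor SnoN, averaged 289 ± 104 in Tcell low (SD, n = 4) and 129.6 ± 44.7 in Tcell high (SD, n = 6), a log2 difference of 1.15 (SE 0.32, limma adjusted p = 0.0378).

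Of 15 tested SMAD target genes, 1 fell and 14 did not pass. Hamp2, a second hepcidin gene of the mouse, had 1297, 20.3, 185 and 33.0 scaled counts in Tcell low replicates 1 to 4 and 8607 to 17522 in Tcell high. All Tcell low values lay below all Tcell high values, with a log2 difference of -6.68 (SE 0.86, limma adjusted p = 0.00331). Hamp, the hepcidin gene that carries the iron-regulating hormone, had 3883, 69.9, 253 and 1015 scaled counts in Tcell low and 959 to 4625 in Tcell high, and did not pass (log2 -2.01, SE 0.86, limma adjusted p = 0.118). Hamp2 shares 12.2% of the short words of its 3′ end with Hamp, so a part of the reads could be assigned to either. Hamp is named here beside Hamp2 after its values were seen.

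Of 11 tested genes of the integrated stress response, 1 rose and 10 did not pass. Asns, which encodes asparagine synthetase, had 17.4, 21.4, 24.4 and 60.3 scaled counts in Tcell low replicates 1 to 4, and 3.69, 0, 1.25, 6.81, 7.16 and 0 in Tcell high replicates 1 to 6. Its log2 difference was 3.26 (SE 0.76, limma adjusted p = 0.0232), with 2 Tcell high libraries listed at 0. As for Fst, its Tcell high mean (3.15) is below the filter of 10, so Asns was tested only because of its level in Tcell low. The size depends on the pseudocount, with a log2 difference of 3.68 at 0.5 and 2.10 at 5.

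The number of related genes that passed depended on single libraries. It was 25 without Tcell low 1, 2 without Tcell low 2, 4 without Tcell low 3 and 3 without Tcell low 4. Without Tcell high 1 to 6 in turn, it was 6, 13, 4, 10, 5 and 6. Without Tcell low 1 the log2 difference was 2.13 for Bmp4, 2.17 for Tgfbr2, 1.00 for Bmpr2, 1.19 for Hfe2, 3.97 for Bmper, 1.23 for Skil, -7.85 for Hamp2 and 3.47 for Asns, and these 8 genes passed. Hamp2 passed with each of the 10 libraries left out, Bmper in 8 of these 10 fits, Bmp4 in 7, Asns in 6 of the 9 in which it reached the filter, Tgfbr2 in 5, Skil in 4, Bmpr2 in 3 and Hfe2 in 2. None of the related genes named here passed against Tcell high 2 and 4 alone, where 0 genes of the whole table did by limma and 1027 had an unadjusted p under 0.05.

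Markers of other cells were measured in the same libraries. In whole liver, fewer cells of a type and less RNA per cell cannot be told apart. All 4 tested neutrophil markers (S100a8, S100a9, Retnlg and Ngp, of 7 listed) rose, and the list summed to 639 to 1765 scaled counts in Tcell low and 39.8 to 208 in Tcell high. Retnlg and Ngp, with Tcell high means of 8.23 and 1.45, reached the filter only through Tcell low, and S100a8 and S100a9 did not depend on it. Of 6 endothelial markers, 2 rose (Stab2 and Lyve1), with sums of 2062 to 2373 in Tcell low and 1827 to 2631 in Tcell high. The list was split, with 3 positive and 3 negative log2 differences, and the negative ones included Kdr (-0.63, limma adjusted p = 0.0687) and Clec4g (-0.74, limma adjusted p = 0.0853), which did not pass. Of 6 tested genes listed as markers of duct or carcinoma epithelium, 1 rose (Msln), with sums of 1506 to 2397 in Tcell low and 1364 to 2143 in Tcell high. These sums came mostly from Krt18 (1068 to 1622 in Tcell low and 813 to 1246 in Tcell high). They are therefore not read as an amount of duct or carcinoma cells. Of their log2 differences 5 were positive and 1 negative, Krt8 (-1.04, SE 0.48). Krt19, Epcam and Muc1 were below the level needed for a test. Among 5 erythroid markers 1 rose (Hba-a2), with sums, mostly from Hba-a2, of 43059 to 98086 in Tcell low and 19679 to 51907 in Tcell high. This list had 4 positive log2 differences and 1 negative, Hbb-bs (-2.80, SE 1.53). Hbb-bs held 118 to 215 scaled counts in Tcell low and was split within Tcell high. It held 3465 to 9359 in Tcell high 1, 3, 5 and 6, but only 99.7 and 16.2 in Tcell high 2 and 4. Among 5 hepatocyte markers 1 rose (Apoa1), with 2 positive and 3 negative log2 differences. The 8 stellate and fibroblast markers had 2 positive and 6 negative log2 differences, the negative ones including Des (-1.14, SE 0.45) and Reln (-0.67, SE 0.25). Their sums were 2968 to 4725 in Tcell low and 2219 to 3203 in Tcell high, mostly from Dcn (log2 0.40). By limma, 0 of the 8 passed, and 2 had an unadjusted p under 0.05. Likewise 0 of 6 Kupffer cell markers passed (0 unadjusted; sums of 3098 to 6722 in Tcell low and 2032 to 8081 in Tcell high). For T and NK cells, 0 of 1 tested marker passed (0 unadjusted; sums of 9.74 to 42.2 in Tcell low and 15.4 to 38.9 in Tcell high). No marker was at 0 in all libraries. The part of these cells in the levels of Inhbb, Fst and the related genes was not tested.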

How the data were processed

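RNA of 10 liver libraries was measured by 3′ end sequencing. The submitters' processing notes name STAR, DESeq2 and mm10, while tool versions, annotation and read counter were not given in the sources used here. In the deposited table each value is a signal, a gene's count after the authors' scaling for depth. The values are not whole: 5.72% to 9.77% of the values above 0 and under 60 in a library were whole multiples of its commonest value (within 0.01 of a step), so whole reads could not be recovered, the depth in reads is unknown and no counting interval was made. Median-of-ratios factors of the deposited values were all 1.016.

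Groups and replicates came from the sample titles, and 0 columns were left unmapped. The 11110 genes that averaged 10 or more scaled counts were compared on log2(value + 1), pseudocount 1, by limma 3.58.1 in R 4.3.3 with a variance trend, two-sided, Benjamini-Hochberg adjusted, threshold 0.05, with 13.1 degrees of freedom. The fit was tested on simulated data. The design had named another test for whole counts, and the test for scaled values applied. Positions came from GENCODE vM21 and promoters from RefSeq, with entries for 7 of 8 members.

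The members and lists were chosen with earlier results of these data known. Named genes were the 8 members, the related genes that passed (at most 4 per list and direction), and the 3 nearest profiles of each member. The results of 1 list of related genes are in the totals and are otherwise not reported here. Alternatives changed the pseudocount, filter, scaling, variance model, threshold, replicate block, comparator libraries and each left-out library.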

Additional observations from a re-analysis of the deposited data

Results flagged for a closer look

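In 84 groups of 4 or 6 libraries over the named genes, the highest or lowest library was checked for distance from the others. The check used scaled counts and not the log2 values of the fit, and 6 values stood out. Chance alone would flag about 1 group in 20 for normally distributed values, so several of the 6 flags would arise by chance at that rate. Whether scaled counts keep that rate was not tested, and the check was not repeated on log2 values. The flags therefore describe scaled counts only. Inhbe stood out in both groups, with 94.4 scaled counts in Tcell low 1 against 3.21 to 14.7 in the other Tcell low libraries, and with 157 in Tcell high 6 against 27.7 to 72.4 in the other Tcell high libraries. As log2 distances from the Tcell high mean, Inhbe had 0.75 in Tcell low 1 against -3.75 to -1.85 in the other Tcell low libraries. In Tcell high 6 this distance was 1.48, against -0.98 to 0.37 in the other Tcell high libraries. Tcell low 1 was also far above its group for Hamp2, with 1297 scaled counts against 20.3 to 185, and for Rad51b, with 36.0 against 1.62 to 4.19. Asns in Tcell low 4 held 60.3 scaled counts against 17.4 to 24.4. Mbl1 in Tcell high 6 held 2264 against 1478 to 1696. Rad51b and Mbl1 were named because their profiles are most like those of Inhbe and Inhbc, so they were chosen to share the members' pattern and are not separate evidence.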

How the results depend on the processing

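Of the 8 members, 2 passed as reported. With a filter at a mean of 30 scaled counts 1 passed (Inhbb, since Fst was then not tested), with library weights 3, at a threshold of 0.1 4, and against Tcell high 2 and 4 alone 0 by limma (2 at an unadjusted p under 0.05). For the related genes the count of 10 became 6 without the variance trend, 23 with library weights, 22 at a threshold of 0.1, 17 against Tcell high 1, 3, 5 and 6, and 0 against Tcell high 2 and 4 (9 unadjusted). For all genes the count of 1420 became 852, 3266, 2871, 2628 and 0 (1027 unadjusted) under the same settings. With single libraries left out, 2 to 4 members, 2 to 25 related genes and 109 to 3633 genes in all passed, each highest without Tcell low 1. The counts of related genes and of all genes were lowest without Tcell low 2. For the members the count was 2 in every left-out fit except that without Tcell low 1. With equal totals, 421 genes were higher and 1068 lower in Tcell low, against 599 and 821 as reported, and the median log2 difference moved to -0.115. With upper quartile scaling 717 were higher and 665 lower, which turns the balance. Inhbb, Fst, Inhbe, Inhbc and the named related genes that passed kept their direction under every alternative in which they were tested, while Inhba (up to 0.33), Acvr1 (0.11) and Acvr2b (up to 0.18) changed sign under some. With the replicate block, over the 8 libraries with numbers 1 to 4, 2 members, 3 related genes and 285 genes in all passed; the same 8 libraries without the block, an alternative chosen after seeing the data, gave 1, 1 and 21. Same-numbered libraries had correlated deviations of 0.104, 0.211, -0.099 and -0.151 for numbers 1 to 4. Numbers 1 and 2 correlated best with their own number (best other 0.044 and 0.122). Numbers 3 and 4 correlated better with another number (0.289 and 0.129). This result is split, so it does not settle whether same-numbered libraries belong together, and the labels give only the number. The causes of these changes were not tested. Low levels limit the precision of Fst, which held 1.76 to 9.39 scaled counts in Tcell high libraries.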
